A study of Homo sapiens with 6 samples.

Results

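The BCL2 family decides whether a stressed cell keeps its mitochondria intact, and 10 of its genes were followed in SH-SY5Y cells, a human neuroblastoma line, after silencing of PSF, the RNA-binding protein encoded by SFPQ. The genes were taken by symbol from a list (BCL2, BCL2L1, MCL1, BAX, BAK1, BBC3, PMAIP1, BCL2L11, BID and BAD), and all 10 were among the 21301 genes of the deposited table. Cells received an siRNA control (siControl) or an siRNA against PSF (siPSF, 10 nM), and RNA was taken after 72 h, with 3 libraries per group. A single siRNA sequence (siPSF #2) was used, all libraries came from this 1 cell line, and the study describes the libraries as biological triplicates. The study asked whether PSF sustains the viability of neuronal cells, and these genes are where that question meets the cell death machinery.

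In the mitochondrial pathway of apoptosis, the effectors BAX and BAK1 form pores in the outer mitochondrial membrane and let cytochrome c out. The antiapoptotic members BCL2, BCL2L1 (BCL-XL) and MCL1 hold the effectors and their activators in check. The BH3-only members sense stress: BBC3 (PUMA) and PMAIP1 (NOXA) are induced by p53, BCL2L11 (BIM) by growth factor withdrawal, BID is activated by caspase cleavage and BAD is controlled by phosphorylation. Much of this family is regulated at the level of the protein, which RNA counts do not show.

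The libraries held between 101540520 and 132420931 counts, and the members between 1837 and 34886 counts per library. SFPQ itself was at 372, 356 and 401 CPM (counts scaled to library size by edgeR's TMM method) in siControl and at 209, 193 and 165 CPM in siPSF libraries, a fall to 50.2% of the siControl level (adjusted p = 9.5e-05, edgeR). For cell type markers, CPM were scaled to total counts alone, without the TMM factors (1.01 to 1.05 in siControl and 0.964 to 0.985 in siPSF libraries). Of 8 markers of noradrenergic neuroblastoma, 7 were at 161 CPM or more in all 6 libraries, while TH, the first enzyme of catecholamine synthesis, was at 0.846 CPM or less. Summed, these markers were at 4519 to 5160 CPM in siControl and 3773 to 4646 CPM in siPSF libraries. Of 8 markers of other cells, 6 (PTPRC, CD3E, ALB, PECAM1, GFAP and AQP4) had no row in the table, and the other two, EPCAM and COL1A1, summed to 3.81 to 4.92 CPM in siControl and 6.11 to 7.84 CPM in siPSF libraries; their part in the results was not tested. In bulk RNA, fewer cells of a type and less RNA per cell cannot be told apart.

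After PSF silencing BBC3 rose to 1.60-fold, while antiapoptotic BCL2 and the effector BAK1 fell to 73.8% and 78.8% of their siControl levels. Thus 1 of the 10 members was called higher, against a background of 6.65% of all 19694 genes tested, and 2 were called lower, against 8.27%. In both directions together 14.9% of all genes and 15.3% of the protein-coding genes were called, by edgeR's quasi-likelihood test at a Benjamini-Hochberg adjusted p under 0.05. The members' median log2 fold change was -0.02 and that of all genes 0.01, with 5 members above 0 and 5 below. Over the 19694 genes tested 1310 were called higher and 1628 lower. Limma on the deposited FPKM values called 736 and 1782 of 14830 genes with a mean FPKM of at least 0.5, with a median of -0.06. Unfiltered, it called 634 and 1581 of 21301 genes, with a median of -0.03. Directions near 0 thus depend on the values and the genes used. In 4 members (BCL2, BCL2L1, BAK1 and BBC3) the 3 siPSF libraries did not overlap the 3 siControl libraries in CPM, as in 34.4% of all genes tested.

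**Figure D1:**
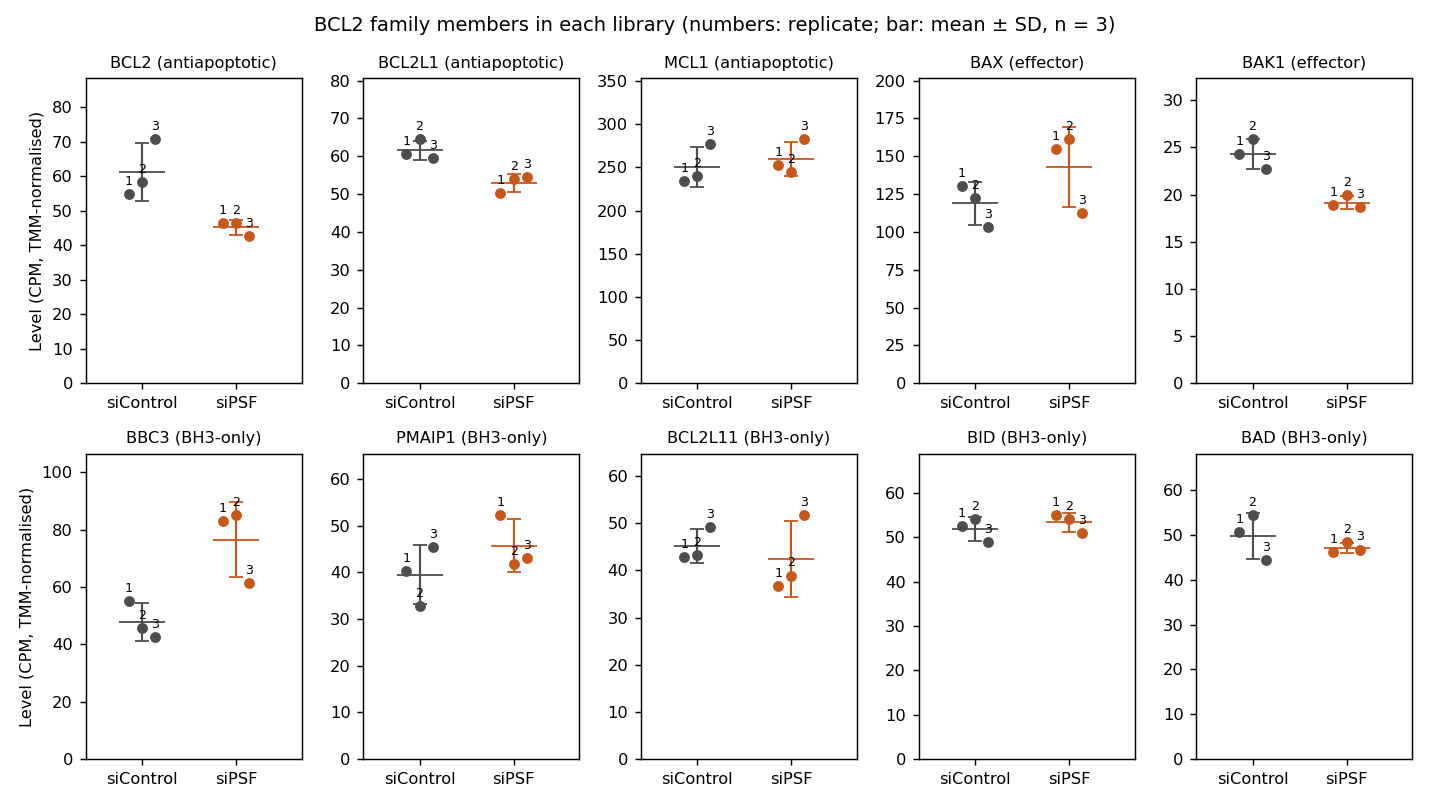
Level of each BCL2 family member in CPM (vertical axes from 0) in the siControl (grey) and siPSF (orange) libraries, with the replicate number beside each point and bars for the mean ± SD (n = 3). BCL2 and BAK1 lie lower and BBC3 higher in all 3 siPSF libraries, and in BAX and BBC3 siPSF replicate 3 lies well below the other siPSF libraries.

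Among the antiapoptotic members, BCL2 fell, BCL2L1 was lower without passing the test, and MCL1 was close to its siControl level. BCL2 (gene ID 596; chromosome 18 of GRCh38 from 63123346 to 63320090, minus strand) was at 54.8, 58.3 and 70.7 CPM in siControl and at 46.4, 46.5 and 42.7 CPM in siPSF libraries. The siControl libraries were spread widely, with replicate 3 well above the others, and the siPSF libraries lay close together below them all. Mean levels fell from 61.3 ± 8.38 to 45.2 ± 2.17 CPM (SD, n = 3 each), the log2 fold change was -0.44 (standard error 0.10) and the adjusted p from edgeR was 0.015. The call held in all 6 fits that each left out 1 library (log2 fold change from -0.51 to -0.33).

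BCL2L1, whose main product BCL-XL guards neurons against BAX, was at 60.5, 64.4 and 59.6 CPM in siControl and at 50.3, 54.0 and 54.6 CPM in siPSF libraries. All siPSF libraries were below all siControl libraries, by a small step. The log2 fold change was -0.22 (95% interval -0.40 to -0.04, edgeR's adjusted p = 0.10), so the fall was not called. With limma on the deposited FPKM values in place of the counts it was called lower, at a log2 fold change of -0.29 (adjusted p = 0.022). BCL2L1 splices into long and short forms of opposite effect, and its 13 annotated transcripts were counted as 1 gene, so these values do not separate the forms.

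MCL1, a short-lived antiapoptotic protein, was by far the most abundant antiapoptotic member, also per length, at 235, 240 and 277 CPM in siControl and 253, 244 and 282 CPM in siPSF libraries. The groups overlapped almost completely. Its log2 fold change was 0.05, with a 95% interval from -0.15 to 0.26 (edgeR's adjusted p = 0.75).

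Of the effectors, BAK1 fell and BAX was not called. BAK1 (gene ID 578; chromosome 6 from 33572552 to 33580276, minus strand), the effector that sits in the outer mitochondrial membrane, was at 24.3, 25.9 and 22.7 CPM in siControl and at 18.9, 19.9 and 18.6 CPM in siPSF libraries. Every siPSF library was lower, and the siPSF libraries varied little among themselves. Mean levels fell from 24.3 ± 1.57 to 19.2 ± 0.683 CPM (SD, n = 3 each). On the log2 scale this was -0.34 ± 0.10 (standard error; adjusted p = 0.031, edgeR). This call was near the threshold: it was kept without siControl replicate 3 and lost without each of the other 5 libraries, with adjusted p up to 0.13 (without siControl replicate 2) and log2 fold changes from -0.39 to -0.31.

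BAX (gene ID 581; chromosome 19 from 48954875 to 48961798, plus strand), the mainly cytosolic effector and a p53 target, was at 131, 122 and 103 CPM in siControl and at 155, 161 and 112 CPM in siPSF libraries. The first 2 siPSF replicates were above all siControl libraries, while siPSF replicate 3 lay within the siControl range. The log2 fold change was 0.26 (95% interval -0.02 to 0.55, edgeR's adjusted p = 0.20) and was not called. Without siPSF replicate 3 it was 0.41 and called (edgeR's adjusted p = 0.011), and without siPSF replicate 2 it was 0.17 (adjusted p = 0.47).

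The BH3-only members held the largest change of the 10, in BBC3. BBC3 (gene ID 27113; chromosome 19 from 47220824 to 47232860, minus strand), whose product PUMA binds all antiapoptotic members, was at 55.3, 45.7 and 42.6 CPM in siControl and at 83.1, 85.1 and 61.5 CPM in siPSF libraries. All siPSF libraries lay above all siControl libraries, though siPSF replicate 3 by a narrow margin. Mean levels rose from 47.9 ± 6.62 to 76.6 ± 13.1 CPM (SD, n = 3 each). On the log2 scale this was 0.68 ± 0.13 (standard error; adjusted p = 0.0053, edgeR). The call held in all 6 fits that each left out 1 library, between 0.60 and 0.81 (adjusted p at most 0.042).

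The other BH3-only members were not called. PMAIP1, whose product NOXA mainly neutralizes MCL1, was at 40.2, 32.8 and 45.3 CPM in siControl and 52.3, 41.8 and 43.2 CPM in siPSF libraries, with overlap and a log2 fold change of 0.21 (95% interval -0.06 to 0.49, edgeR's adjusted p = 0.28). BCL2L11 was at 42.9, 43.3 and 49.3 CPM in siControl and at 36.6, 38.9 and 51.7 CPM in siPSF libraries, so that siPSF replicate 3 was the highest of all 6 libraries and the other siPSF replicates were the lowest. Its log2 fold change was -0.09 (95% interval -0.36 to 0.18, edgeR's adjusted p = 0.68), and -0.26 without siPSF replicate 3 (adjusted p = 0.10).

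BID ranged from 48.9 to 54.1 CPM in siControl and from 50.9 to 55.0 CPM in siPSF libraries, and BAD from 44.4 to 54.5 and from 46.2 to 48.4 CPM. Both groups overlapped in each gene, with log2 fold changes of 0.04 (95% interval -0.14 to 0.23) in BID and -0.08 (-0.29 to 0.13) in BAD. Part of the BAD exons, 23.7% of their bases, is shared with GPR137 on the opposite strand, which was at 56.0 CPM, and as the use of strand in counting is not given, the level of BAD is uncertain. BCL2L1 shares 41.3% of its exonic bases with the antisense RNA ABALON, which was at only 0.290 CPM.

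**Figure D2:**
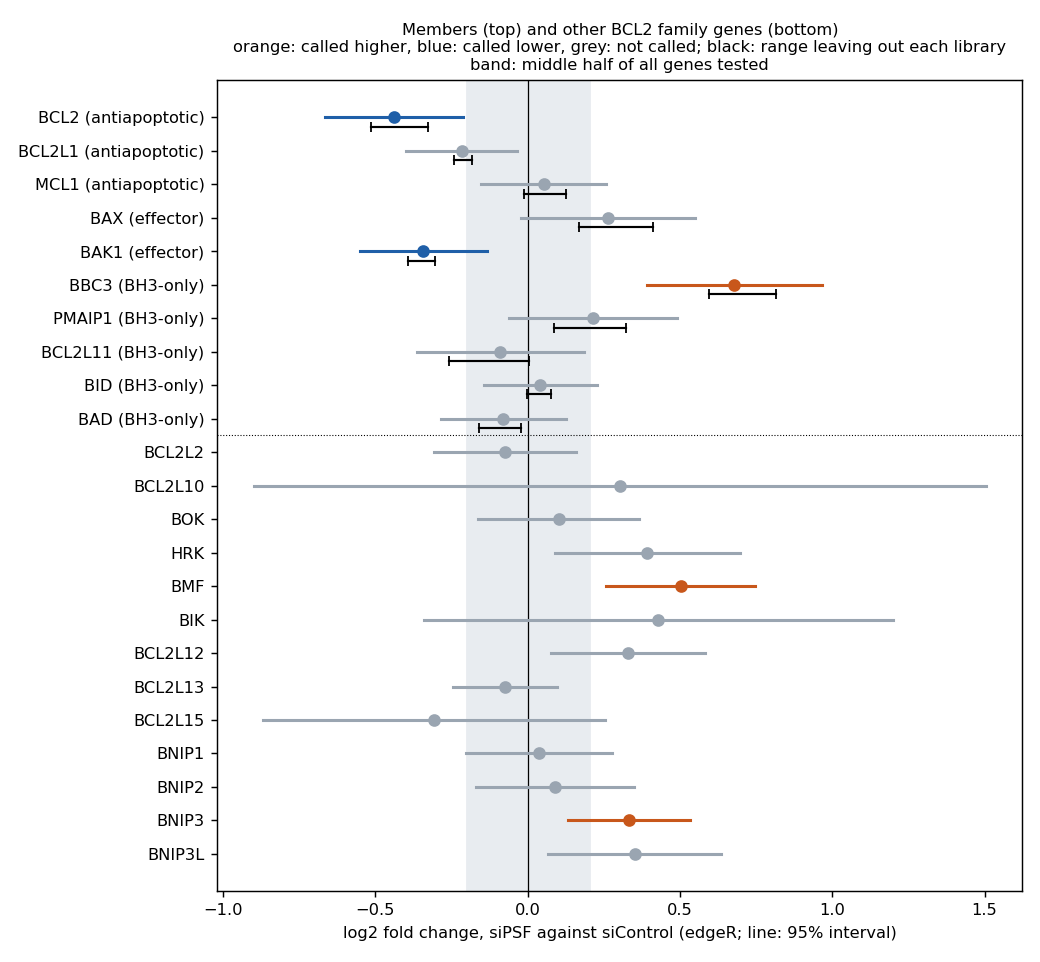
Log2 fold change (horizontal axis, siPSF against siControl, edgeR) with its 95% interval for the 10 members (top) and 13 other BCL2 family genes (bottom); orange marks genes called higher and blue genes called lower, black lines give the members' range when each library was left out, and the grey band is the interquartile range of all genes tested (-0.20 to 0.20). BBC3 (0.68) and BMF (0.50) lie farthest right among the called genes and BCL2 (-0.44) farthest left.

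The members differ greatly in genomic length, along which fold changes differ in these libraries. BCL2 spans 197 kb, longer than 92.0% of the protein-coding genes tested, and its 721 neighbours in length had a median log2 fold change of -0.17. Relative to that median BCL2 was at -0.27. BAK1 (7.73 kb) and BBC3 (12.0 kb) are short genes from bins with medians of 0.08 and 0.07, relative to which they were at -0.42 and 0.61. The part of length in these changes was not tested further.

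Upstream sequence is shown for BAX and BAK1, the effectors, and for BBC3, the member that rose, from the RefSeq promoter windows on GRCh38.p14. A window holds the 250 bases before 1 annotated transcript start, and genes with several starts can extend past it. Only bases outside the RefSeq bounds of the gene are printed, 5′ to 3′ on the gene's strand: 250 for BAX and BAK1 and 57 for BBC3, of whose window 193 bases lie inside the gene. The BCL2 window lies wholly inside the bounds of BCL2 and is not shown or described. Capitals mark letters searched on both strands: the GC box GGGCGG, the CCAAT box CCAAT, the TATA box TATAAA, the cyclic AMP response element TGACGTCA, the E-box CACGTG and the p53 half-site.
BBC3, chr19:47232861-47232917, minus strand: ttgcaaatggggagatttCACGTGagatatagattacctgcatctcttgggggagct
BAX, chr19:48954625-48954874, plus strand: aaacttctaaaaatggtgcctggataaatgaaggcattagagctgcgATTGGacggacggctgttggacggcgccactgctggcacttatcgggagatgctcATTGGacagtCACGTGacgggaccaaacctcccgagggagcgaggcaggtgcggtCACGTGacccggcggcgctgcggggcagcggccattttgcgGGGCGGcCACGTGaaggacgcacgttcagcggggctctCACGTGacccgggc
BAK1, chr6:33580277-33580526, minus strand: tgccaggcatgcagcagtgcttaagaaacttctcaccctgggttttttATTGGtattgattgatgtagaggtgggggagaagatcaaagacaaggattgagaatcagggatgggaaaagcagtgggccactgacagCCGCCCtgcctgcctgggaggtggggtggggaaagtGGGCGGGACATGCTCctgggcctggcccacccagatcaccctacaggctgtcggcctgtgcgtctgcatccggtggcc

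The BAX window held 4 E-boxes, 2 CCAAT boxes and 1 GC box, and its last 60 bases lie in an exon of another BAX transcript in GENCODE. An E-box of these letters is found in 6.34% of 35116 RefSeq promoter windows of 250 bases, a CCAAT box in 32.0% and a GC box in 42.6%. The BAK1 window held 2 GC boxes, 1 CCAAT box and 1 p53 half-site (present in 5.57% of windows), which overlaps the GC box nearer the start. The short stretch before BBC3 held 1 E-box. BAX had 62.8% G and C with 25 CpG dinucleotides and BAK1 58.0% with 5, against medians of 58.0% and 11 over all windows. The TATA box (10.7% of windows) and the cyclic AMP response element (1.65%) were in none of the 3 stretches. These letters are described as sequence, and binding was not measured.

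Levels between genes were compared per length, in FPKM (counts scaled to transcript length and library size, as deposited). In siControl libraries BAX led at 98.1 ± 9.94 FPKM, followed by MCL1 at 59.3 ± 6.85 and BAD at 45.1 ± 4.24 FPKM (SD, n = 3 each). These 3 did not overlap with each other or with the rest. BBC3 (24.3 ± 3.05), BCL2L1 (22.8 ± 0.598) and BID (22.4 ± 0.750 FPKM) followed with overlapping libraries, then PMAIP1 at 17.8 ± 3.35 FPKM. BAK1 (10.4 ± 0.460), BCL2 (8.73 ± 1.49) and BCL2L11 (8.42 ± 0.879 FPKM) were lowest, each overlapping its neighbour.

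In siPSF libraries BBC3, at 36.8 ± 6.54 FPKM, overlapped BAD (40.8 ± 1.40) above it and no longer BCL2L1 (18.6 ± 0.679) or BID (21.6 ± 1.18 FPKM; SD, n = 3 each). BCL2 was the lowest of the 10 members after siPSF, at 6.45 ± 0.0511 FPKM, below BCL2L11 in all libraries. BCL2L1 moved from place 5 to place 7, with PMAIP1 (19.8 ± 2.83 FPKM) now just above it and overlapping.

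**Figure D3:**
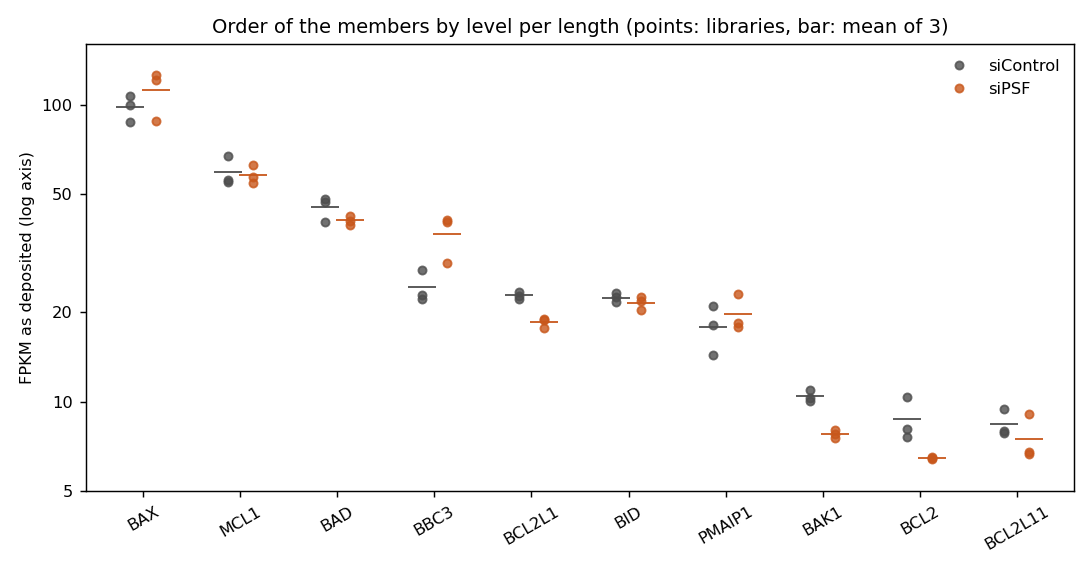
FPKM as deposited (log axis) of the 10 members in siControl (grey) and siPSF (orange) libraries, ordered by the siControl mean, with points for libraries and bars for the means of 3. BAX and MCL1 lead in both groups, BBC3 moves up towards BAD, and BAK1 and BCL2 lie lower after siPSF.

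Summed by role, the antiapoptotic members were at 84.8, 87.4 and 100.3 FPKM in siControl and at 81.6, 79.5 and 88.4 FPKM in siPSF libraries. The effectors summed to 118, 110 and 97.6 FPKM in siControl and to 129, 134 and 95.3 FPKM in siPSF libraries, most of it BAX. The BH3-only members summed to 123, 116 and 115 FPKM in siControl and to 133, 130 and 117 FPKM in siPSF libraries. Each of these sums overlapped between groups. The ratio of BCL2 to BAX within a library, a common index of the balance between survival and death, had log2 values of -3.82, -3.61 and -3.07 in siControl and of -4.22, -4.29 and -3.77 in siPSF libraries. The mean difference was -0.60, and siPSF replicate 3 lay above siControl replicate 1, so the groups overlapped. For BCL2L1 to BAX the mean log2 ratio went from -2.10 ± 0.163 to -2.57 ± 0.318 (SD, n = 3 each), again with overlap through siPSF replicate 3. The ratio of MCL1 to PMAIP1 overlapped as well, at 1.75 ± 0.191 and 1.56 ± 0.231. No test was made on these ratios, because the genes were chosen with results of these libraries known.

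BAX, BBC3 and PMAIP1 are p53 targets. Among the siPSF libraries replicate 3 was the lowest in BAX and BBC3, as in 19 of 21 further p53 targets tested (38.6% of all genes), while in PMAIP1 replicate 2 was the lowest. With all libraries, 4 of the 21 were called higher and 0 lower, against 6.65% and 8.27% of all genes. Their median log2 fold change was 0.31, and all 21 fold changes were above 0, against 10153 of all 19694 genes. The median was 0.20 without siPSF replicate 1, 0.21 without siPSF replicate 2 (20 of 21 above 0 in both) and 0.47 without siPSF replicate 3. Of the fold changes 14 of 21 were above 0, with a median of 0.10, after FPKM values were rescaled to equal sums, where the median of all genes was -0.16. The called genes were CCNG1, a cell cycle regulator (0.83, edgeR's adjusted p = 3.6e-04), SESN1, a stress-induced inhibitor of growth signalling (0.51, adjusted p = 0.023), FDXR, a mitochondrial reductase (0.65, adjusted p = 0.035), and PPM1D, a phosphatase that switches the p53 response off (0.39, adjusted p = 0.032). In siPSF replicate 1 all 21 targets lay above every siControl library, in siPSF replicate 2 this was so for 20, and in siPSF replicate 3 for 4. Over all genes tested the shares were 33.0%, 32.6% and 35.3%.

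CDKN1A (p21), the cell cycle inhibitor that is the most abundant of these targets per length, shows the pattern, with 612, 671 and 570 CPM in siControl and 894, 1027 and 491 CPM in siPSF libraries. Replicates 1 and 2 of siPSF were the highest libraries and siPSF replicate 3 was the lowest of all 6. Its log2 fold change was 0.38 with all libraries (edgeR's adjusted p = 0.23) and 0.64 without siPSF replicate 3 (adjusted p = 6.2e-04). Without that library 16 of the 21 targets were called higher, against 7.07% of all genes in that fit, and of the members BAX joined BBC3 (log2 fold change 0.81). Without siControl replicate 2, siControl replicate 3, siPSF replicate 1 or siPSF replicate 2, 1 of the 21, CCNG1, was called higher in each fit, and 3 were without siControl replicate 1. SFPQ was at its lowest in siPSF replicate 3. What sets siPSF replicate 3 apart was not tested.

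**Figure D4:**
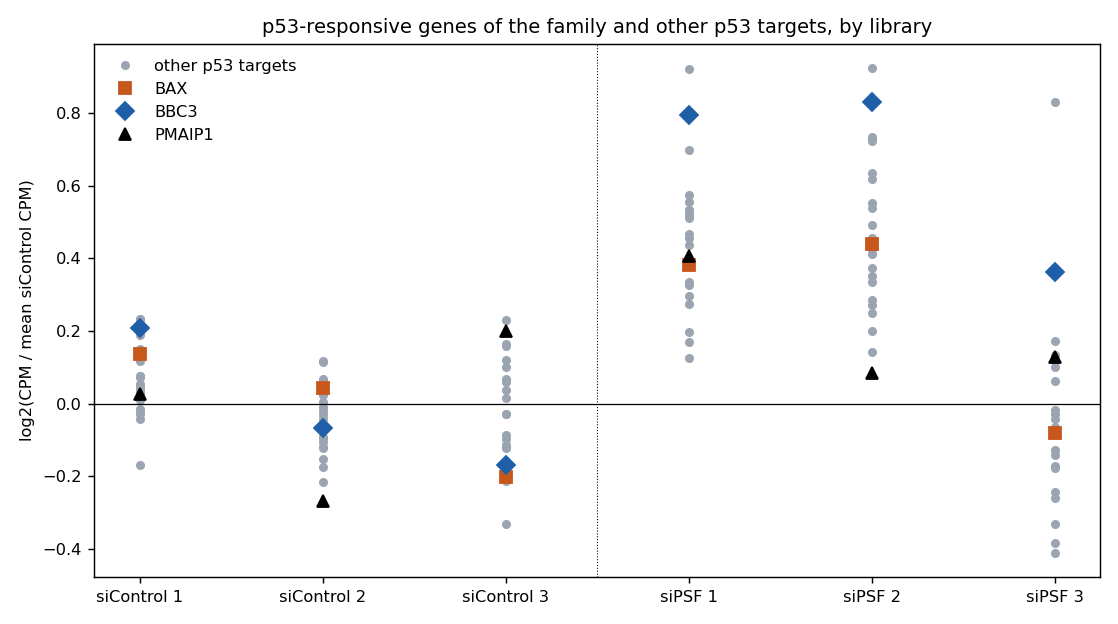
Log2 ratio of each library's CPM to the siControl mean for BAX, BBC3 and PMAIP1 and for 21 other p53 targets (grey). All 21 targets lie above every siControl library in siPSF replicate 1 and 4 of them in siPSF replicate 3, where BAX is also below the siControl mean.

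Of 15 other BCL2 family genes listed, 13 were tested, and 2 were called higher and 0 lower, against 6.65% and 8.27% of all genes. Their median log2 fold change was 0.30, with 10 of 13 above 0, but the median was 0.09 without siControl replicate 1, 0.18 without siControl replicate 2 and 0.14 without siPSF replicate 1. BMF, a BH3-only sensor of the cytoskeleton, was at 21.0, 19.6 and 19.7 CPM in siControl and rose to 28.4, 32.5 and 24.4 CPM in siPSF libraries (log2 fold change 0.50, edgeR's adjusted p = 0.011; 0.061 without siControl replicate 2). BNIP3, a mitochondrial BH3-like protein of mitophagy, went from 42.3 ± 2.44 to 53.2 ± 4.18 CPM (SD, n = 3 each; log2 fold change 0.33, edgeR's adjusted p = 0.031). The BNIP3 call was lost without siControl replicate 1, siControl replicate 2 or siPSF replicate 1, with adjusted p up to 0.15. In BMF and BNIP3 all siPSF libraries were above all siControl libraries, siPSF replicate 3 included. The groups did not overlap in 4 of the 13 genes, against 34.4% of all genes tested.

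Downstream of the mitochondria, 2 of 13 genes of the apoptosome and caspases were called higher and 0 lower. The shares of all genes were 6.65% and 8.27%. In each fit that left out 1 library, 1 gene of this list was called higher. The list median was 0.06 (-0.002 without siPSF replicate 3, 0.01 without siControl replicate 1, 0.02 without siPSF replicate 1). AIFM1, a mitochondrial flavoprotein that can also carry death signals to the nucleus, rose from 34.9 ± 0.563 to 46.7 ± 2.12 CPM (SD, n = 3 each; log2 fold change 0.42, edgeR's adjusted p = 0.0064), a call held in all 6 fits that each left out 1 library. PARP1, the caspase substrate with the highest FPKM of that list, had a log2 fold change of 0.06 (adjusted p = 0.70). Of the 9 inhibitors of apoptosis and their antagonists, 1 was called lower and 0 higher (median 0.03, and between -0.12 without siPSF replicate 1 and 0.06 without siControl replicate 1): BIRC6, a very large inhibitor of caspases, with a log2 fold change of -0.40 (adjusted p = 0.012; 0.058 without siPSF replicate 1). It spans 262 kb and lay at -0.22 relative to genes of similar length. DIABLO, their mitochondrial antagonist with the highest FPKM, was at -0.15 (adjusted p = 0.27).

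Of the 12 death receptor and adaptor genes tested, 1 was called higher and 0 lower, against 6.65% and 8.27% of all genes. The list median was 0.11, and 0.02 without siPSF replicate 2 or 0.07 without siPSF replicate 1. The gene called higher was PIDD1, a p53-induced adaptor of caspase-2, at a log2 fold change of 0.51 (edgeR's adjusted p = 0.040). Its libraries repeated the p53 pattern, with 135, 138 and 91.6 CPM after siPSF against 98.8, 85.5 and 72.4 CPM, and its call was lost without siControl replicate 2 or 3 or siPSF replicate 1 or 2 (adjusted p up to 0.17). TNFRSF10B, a receptor for the death ligand TRAIL, was at 0.14 (adjusted p = 0.52) with all libraries and at 0.31 without siPSF replicate 3 (adjusted p = 0.029).

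The transcription factors known to drive BH3-only genes had 4 of 12 members called lower and 1 called higher, with a median log2 fold change of -0.15. Of all genes 8.27% were called lower and 6.65% higher. E2F1, a cell cycle factor that also induces death genes, fell from 115 ± 9.60 to 82.0 ± 2.17 CPM (SD, n = 3 each; log2 fold change -0.49, edgeR's adjusted p = 0.0028). ATF3, a stress-induced factor, was at -0.46 (adjusted p = 0.0093), JUN, the nuclear target of JNK, at -0.46 (adjusted p = 0.028), and FOXO1, which was at only 1.80 CPM in siControl, at -0.77 (adjusted p = 0.021). The calls of E2F1 and ATF3 held without each library in turn, JUN lost its call without siControl replicate 1 or siPSF replicate 1 (adjusted p up to 0.087), and FOXO1 without siControl replicate 2 or 3 or siPSF replicate 2 (up to 0.070). ATF4, the factor of the integrated stress response, rose by 0.28 (adjusted p = 0.036), a call lost in all 6 fits that each left out 1 library (adjusted p from 0.058 to 0.10), and it was at 0.15 relative to genes of similar length.

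Among 25 post-translational regulators of the family 1 was called higher and 1 lower, against 6.65% and 8.27% of all genes. The list median was 0.03, and lay between -0.02 (without siControl replicate 3) and 0.03 with 1 library left out. FBXW7, the ubiquitin ligase subunit that marks MCL1 for degradation, was at 32.3, 29.9 and 33.7 CPM in siControl and 43.1, 39.1 and 38.2 CPM in siPSF libraries (log2 fold change 0.33, edgeR's adjusted p = 0.034, and 0.50 relative to genes of similar length). MAPK10, the neuronal JNK kinase, went from 11.9 ± 1.98 to 8.58 ± 1.03 CPM (SD, n = 3 each; log2 fold change -0.47, adjusted p = 0.044). The FBXW7 call was lost without siControl replicate 1 or 2 or siPSF replicate 1 or 2, and the MAPK10 call without siControl replicate 1 or 3 or siPSF replicate 2 or 3 (adjusted p up to 0.16 and 0.15). MAPK10 spans 584 kb, and relative to genes of similar length it was at -0.07. YWHAE, a 14-3-3 protein of the kind that binds phosphorylated BAD and the gene of highest FPKM in that list, was at -0.08 (adjusted p = 0.64).

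**Figure D5:**
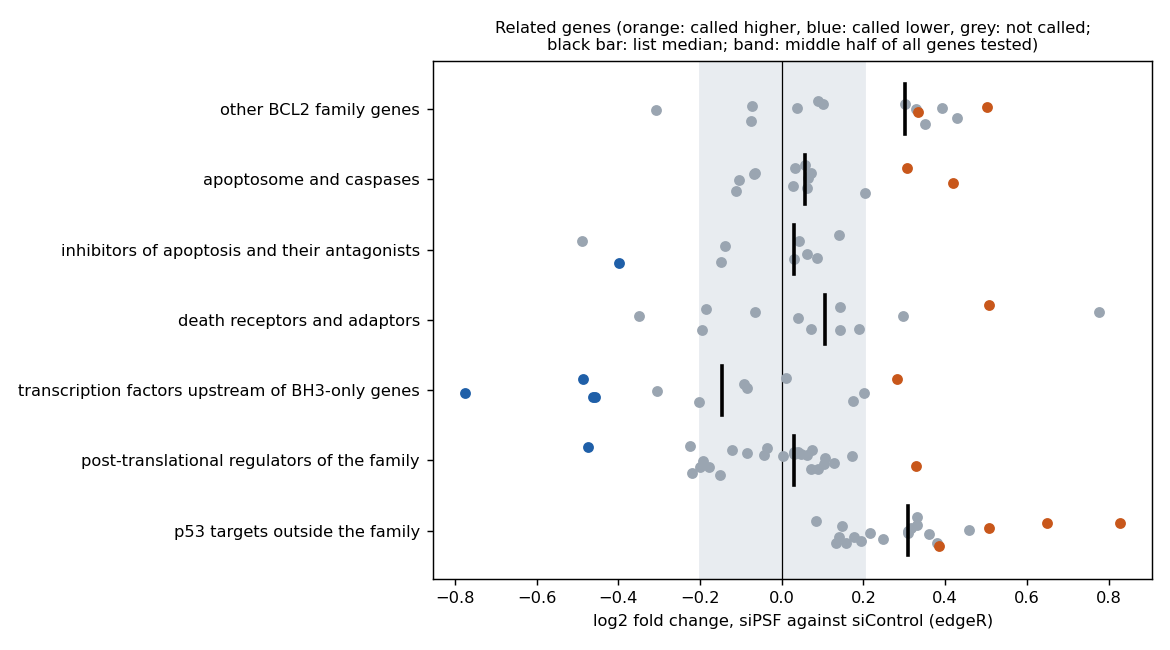
Log2 fold change (horizontal axis, siPSF against siControl, edgeR) of each gene in 7 lists around the BCL2 family, with orange for genes called higher, blue for genes called lower, a black bar at each list's median and a grey band for the interquartile range of all genes tested. The p53 targets (median 0.31) and other BCL2 family genes (0.30) have medians beyond the band, and the transcription factors (-0.15) have the lowest median. The 0.30 is the value of BCL2L10, a gene with 6 to 28 counts per library.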

How the data were processed

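RNA-seq of SH-SY5Y cells treated with siControl or siPSF was analysed (3 libraries each), with groups and replicate numbers taken from the sample titles. For each gene the authors deposited 1 read count and 1 FPKM value in every library. According to their methods, poly(A) RNA was sequenced as 50 bp pairs, rRNA reads were removed with Bowtie 2, the rest mapped with TopHat to hg38 and tags counted on RefSeq. The submitters' processing notes instead name Trimmomatic, HISAT2 2.1.0 and StringTie 2.1.3b with GRCh38, so which tools made the deposited counts is not settled. The kit also differs (a TruSeq RNA kit in the methods, a stranded TruSeq mRNA kit in the labels), and strand use in counting is not given in the sources used here.

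Counts were filtered (filterByExpr, leaving 19694 genes), TMM-normalised and tested in edgeR 4.0.16 with group alone as the model. Gene positions and lengths came from RefSeq (GRCh38.p14, matching 20820 of 21301 gene IDs), exon overlaps from GENCODE release 44, and promoter windows from RefSeq, which matched 9 of the 10 members. The fit was run on simulated counts with no deviating library, which cannot show how calls behave with a library like siPSF replicate 3. R 4.3.3, limma 3.58.1, DESeq2 1.42.0, Python 3.11.15 and pandas 2.3.3 were also used. The members, lists and tests were chosen with earlier results of these data known. All members were named. In each list, apart from items not reported here, the up to 4 called genes of smallest p and the gene of highest mean FPKM were named. Listed genes with no row in the table, which holds no count of 0, were not analysed here. Alternatives were each library left out, a replicate block, DESeq2 (Wald test or size factors), no filter, centring on genes of similar length (20 bins), and limma with trend on log2(FPKM + 0.5 or 0.1) of genes with a mean FPKM of at least 0.5, also unfiltered or rescaled to equal sums.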

Additional observations from a re-analysis of the deposited data

How the results depend on the processing

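The calls of BCL2 and BBC3 held under every setting run except limma on log2(FPKM + 0.5) without a filter on low values (adjusted p = 0.078 and 0.054), where 0 members were called higher. That of BAK1 was lost only in 5 of the 6 fits leaving out 1 library. With 1 library left out, 1 to 2 members were called higher, 1 to 2 lower, 2 to 26 related genes (of 105 tested) higher and 4 to 6 lower, against 11 and 6 with all libraries. Over all genes the fewest were called without siControl replicate 2, at 572 higher and 928 lower of 19907. The most were called without siPSF replicate 3, at 1405 and 1735 of 19863. Related genes called higher numbered 6 without a filter on counts, 5 with limma on FPKM at either pseudocount, 2 there without a filter and 1 after rescaling. Over all genes 1085 of 21301 were called higher without that filter, 736 and 737 of 14830 with limma, and 634 of 21301 with limma unfiltered. Related genes called lower numbered 11 and 11 with limma at either pseudocount (1782 and 1771 of all 14830 genes) and 16 after rescaling. After rescaling 4 members were also called lower (BCL2, BAK1, BCL2L1 and BAD). Rescaling moved the median of all genes to -0.16, calling 463 genes higher and 3409 lower, and relative to it BBC3 was at 0.63, BCL2 at -0.34 and BAK1 at -0.35.

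Uncalled values near 0 changed sign. MCL1 was at -0.025, -0.025 and -0.025 with limma (pseudocount 0.5, 0.1, unfiltered) and -0.14 after rescaling, BID at -0.055, -0.056, -0.055 and -0.17, PARP1 at -0.020, -0.020, -0.020 and -0.13, and TNFRSF10B at -0.076 after rescaling. With 1 library left out, MCL1 ranged from -0.011 to 0.13, BID from -0.0028 to 0.075, BCL2L11 from -0.26 to 0.0052, PARP1 from -0.041 to 0.12 and YWHAE from -0.20 to 0.0012. The level order moved 0 to 2 members. The difference in the BCL2 to BAX log2 ratio ranged from -0.76 to -0.38. The cause of these shifts was not tested.

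The labels do not say whether equal replicate numbers were handled together. Correlations of deviations from group means were -0.022, 0.056 and 0.056 for equal numbers. For unequal numbers they ranged from -0.12 (siControl replicate 3 with siPSF replicate 2) to 0.071 (siControl replicate 1 with siPSF replicate 2). With 3 libraries per group these values cannot settle whether the samples were paired. With a replicate block, 1 member was called higher and 2 lower, and BBC3 was at 0.67. BAX stayed uncalled (edgeR's adjusted p = 0.059), and over all genes 1389 were called higher and 1640 lower.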
